A study of Oryza sativa Japonica Group with 8 samples.

Results

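Expansins are proteins of the plant cell wall that let it stretch, and 9 of their genes were followed here in rice leaf blades with and without linalool. The members were 6 alpha expansins, EXPA1 to EXPA5 and EXPA10, and 3 beta expansins, EXPB2, EXPB3 and EXPB4. They were chosen by locus identifier, and every non-control probe named for one of these loci on all 8 arrays was taken. This gave 28 probes, each printed as 1 spot, of 42477 probes on the array. The array names 29689 loci in all.

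The plants were rice of the cultivar Hinohikari, and the tissue was the blade of the fifth leaf at the five-leaf stage. Plants of the linalool group were exposed to 10 µM linalool, a volatile monoterpene alcohol, for 24 h at 25 ºC. The control group is called mock here, because the sample descriptions call it mock-treated, although other labels of the same samples give no treatment. Each group held 4 replicates, each a pool of at least 3 plants, and no transgene or mutant was involved. Slide 1 carried the mock arrays and slide 2 the linalool arrays, so an effect of the slide and an effect of linalool cannot be told apart.

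Expansins loosen the contacts between cellulose and the other wall polymers without cutting them, and they work best in an acidic wall. Alpha and beta expansins form separate families, and the grasses have many beta expansins, among them allergens of grass pollen. In rice the genes are best known from growing internodes and roots, where several of them respond to submergence or gibberellin.

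Levels are log2 of the background-corrected signal of a probe relative to the 75th percentile of its array, so that 0 is the level of a fairly bright probe and each unit is a doubling. A level is set only against the same probe on other arrays, because probes differ in how brightly they report. Differences are linalool minus mock, with 95% intervals. They were tested with limma, adjusted over all 33092 probes that cleared background by a wide margin (called well above background by the scanner software) on 4 or more arrays. At gene level each locus took the values of 1 tested probe, the brightest on average. The leaf markers PSAH, a photosystem I subunit, and RCA, which activates Rubisco, were well above background on every array.

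Of the 9 expansin genes, 6 could be tested. After linalool, 5 of these 6 were lower and 1 was higher at an adjusted p of 0.05. EXPA2, EXPA4, EXPA5, EXPB3 and EXPB4 fell, and EXPA10 rose. Lower calls were very common in this comparison, at 38.5% of the 21539 genes tested, and higher calls made up 28.9%. The median difference of the 6 genes was -2.99 on the log2 scale, beside -0.10 for all genes tested. Among probes, 10 of the 13 tested expansin probes were lower, beside 38.9% of all tested probes, and the other 3, all of EXPA10, were higher, beside 28.4%. The EXPA2 probes, EXPB3 probes 2 and 3 and EXPB4 probe 1 passed the filter through the mock arrays alone. In practice only a lower call was open to them, so these counts and the median lean on the filter. With only probes well above background on all arrays, 2 expansin genes could be tested, EXPA4, called lower, and EXPA10, called higher. In bulk tissue, fewer cells of a type and less RNA per cell cannot be told apart.

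**Figure D1:**
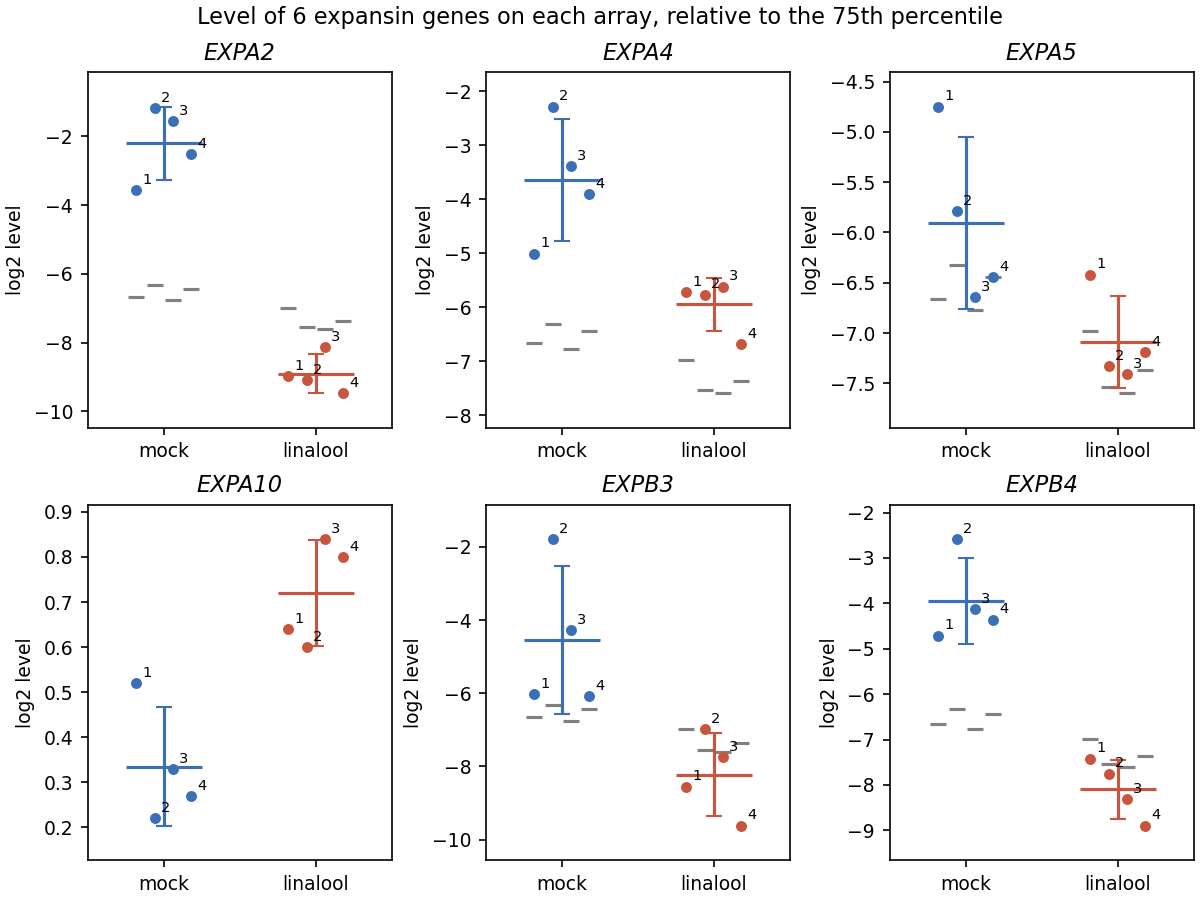
Level of the 6 tested expansin genes on each array (vertical axes, log2 level relative to the 75th percentile; each panel has its own scale), for mock (blue) and linalool (red) arrays numbered by replicate. Horizontal lines are means and bars are SDs (n = 4); grey dashes, not drawn for EXPA10, mark the lowest level among all probes well above background on that array. EXPA2 and EXPB4 lie below the dashes on all linalool arrays, and mock replicate 2 is the highest mock array for EXPA2, EXPA4, EXPB3 and EXPB4.

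Among the alpha expansins, EXPA2 (Os01g0823100), known in rice from elongating internodes, went from a measured level to one below background. Its first probe stood at -3.56, -1.17, -1.56 and -2.52 in mock replicates 1 to 4 and at -8.97, -9.08, -8.12 and -9.47 in linalool replicates 1 to 4. It was well above background on all mock arrays and on no linalool array, and the groups lay far apart. The difference was -6.71 (interval -7.91 to -5.51, limma adjusted p = 1.47e-05). Only a bound can be put on the fold, since the transcript was not measured above background after linalool, and on this footing EXPA2 was at least 36.0-fold lower. Its second probe gave a difference of -6.50 and at least 33.3-fold. Without mock replicate 2 the bounds of probes 1 and 2 were at least 28.4-fold and at least 25.7-fold. The processed signal at the first probe ran from 73.9 to 378 in mock and from 2.03 to 5.76 in linalool.

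EXPA4 (Os05g0477600), another gene known from internode growth, fell but remained measurable. Its first probe was well above background on every array, at -5.01, -2.29, -3.39 and -3.91 in mock and at -5.73, -5.77, -5.62 and -6.68 in linalool. Mock replicate 1 came within 1 unit of the highest linalool array, and the groups did not overlap. The difference was -2.30 (interval -3.52 to -1.08, limma adjusted p = 0.0049), a 4.93-fold lower level. The second probe gave -2.59 (limma adjusted p = 0.00616). Its probe 3, which the array design places in the untranslated region, gave no measured signal on any array, so the fall rests on the other probes.

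EXPA5 (Os02g0744200) was dim, and its fall is the least firm of the 5. Its first probe read -4.75, -5.79, -6.64 and -6.44 in mock and -6.42, -7.33, -7.41 and -7.19 in linalool, and linalool replicate 1 lay above mock replicates 3 and 4. It was well above background on 3 mock arrays and 1 linalool array, and the second probe, the other way round, on 1 mock array and 3 linalool arrays. The difference was -1.18 (interval -2.14 to -0.22, limma adjusted p = 0.0336). The second probe gave -0.55 (limma adjusted p = 0.0392), again with overlapping groups. Its mean processed signal, before scaling, was 8.47 in mock and 9.13 in linalool, so its fall appeared only after scaling. At the first probe the processed signal averaged 17 in mock and 10.4 in linalool. The call at the first probe was lost when mock replicate 2 was left out (limma adjusted p = 0.0716). It was also lost when linalool replicate 2, 3 or 4 was left out (limma adjusted p = 0.0763, 0.0808 and 0.0701).

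A shift of this size also appeared in probes without measured signal. The 8 expansin probes that were not well above background on any array had mean levels in linalool that differed from mock by -0.97 to -0.43, with a median of -0.75. For all 6969 such probes on the array the median was -0.71, with the 5th and 95th percentiles at -1.53 and 0.05. Both EXPA5 differences fall inside this range, and those of EXPA2, EXPA4, EXPB3 and EXPB4 lie beyond it. The part of this shift in the EXPA5 result was not tested.

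EXPA10 (Os04g0583500), known in rice as an aluminium-responsive gene of the root, was well above background on every array at all of its 3 probes, and was the only one of the 6 tested genes to rise. Its first probe stood at 0.52, 0.22, 0.33 and 0.27 in mock and at 0.64, 0.60, 0.84 and 0.80 in linalool. Every linalool array was above every mock array. The rise was small, 0.39 (interval 0.16 to 0.61, limma adjusted p = 0.00741), or 1.31-fold. Probes 2 and 3 gave 0.36 and 0.45 (limma adjusted p = 0.0141 and 0.00517).

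Over the 8 arrays, the genes outside the lists whose pattern was most like that of EXPA10 were Os03g0278800 and Os06g0697200, with Pearson's r of 0.9965 and 0.9958. They differed between the groups by 1.17 and 1.16, more than EXPA10 itself. Such likeness was common, with 403 genes at an r above 0.95, and the 8 points share the split between groups and slides.

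EXPA1 and EXPA3 could not be tested. Neither of the 2 EXPA1 (Os04g0228400) probes was well above background on any array. EXPA3 (Os05g0276500) was measured now and then: its first probe was well above background on mock replicate 1 and linalool replicate 3, and its second on linalool replicates 2, 3 and 4. The second probe stood at -8.68, -8.64, -9.09 and -6.45 in mock and -8.49, -7.47, -7.16 and -7.17 in linalool. Mock replicate 4 was the highest of all 8 arrays at this probe, so the groups overlapped, and the same was true of mock replicate 1 at the first probe. Apart from EXPA10, EXPA3 was the only member whose mean levels were higher after linalool, by 0.79 and 0.64 at its probes, values with no test.

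**Figure D2:**
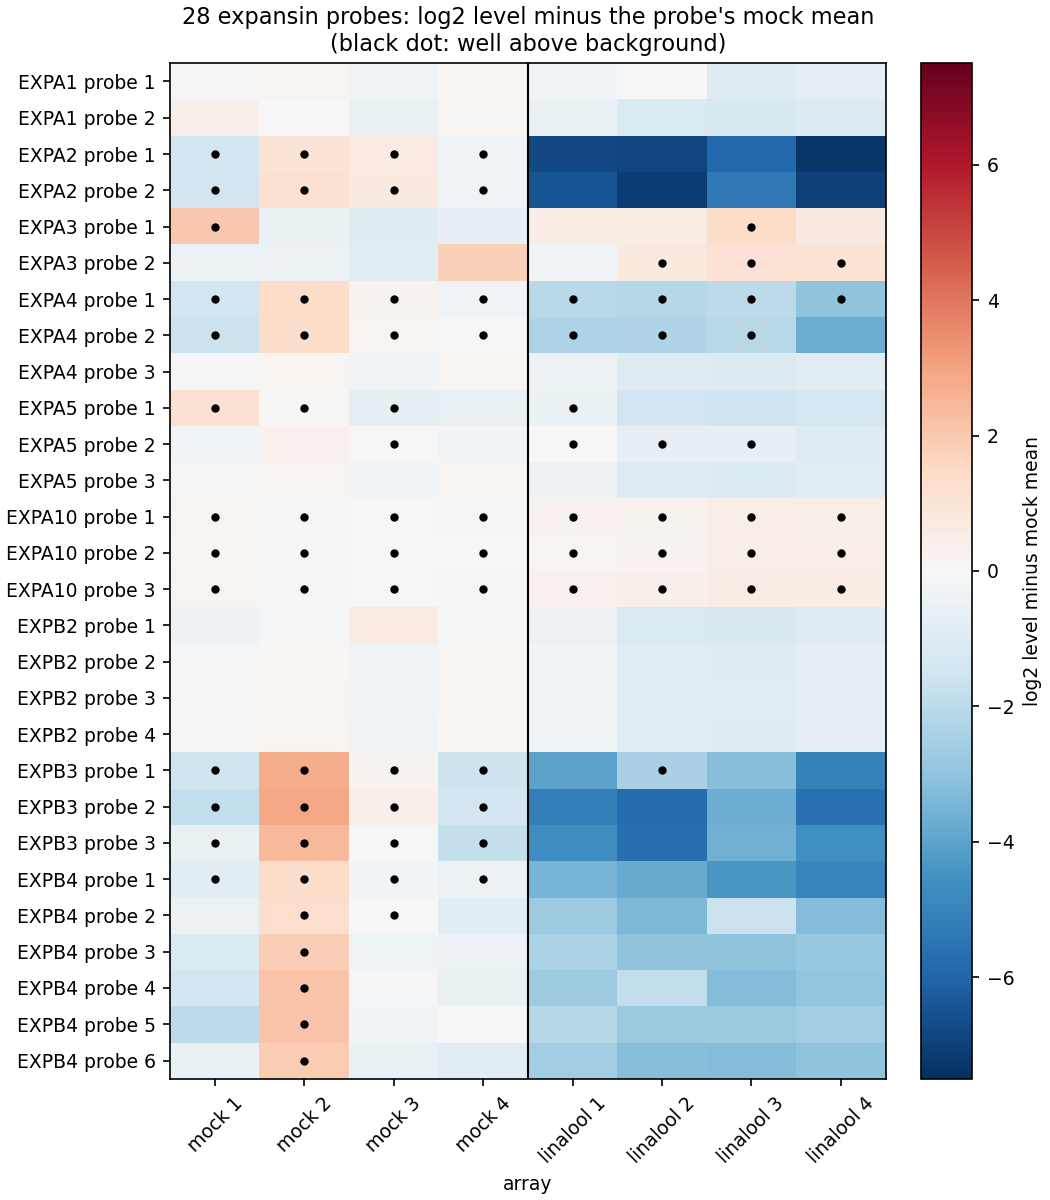
Colour map of all 28 expansin probes (rows) on the 8 arrays (columns), showing the log2 level minus the mean of the probe over the mock arrays. Black dots mark probes well above background on that array. The EXPA2, EXPB3 and EXPB4 rows are blue in linalool with a dot at 1 place there (EXPB3 probe 1, linalool replicate 2), and all 6 EXPB4 probes and all 3 EXPB3 probes are reddest in mock replicate 2.

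The 3 beta expansins belong to 1 cluster of neighbouring genes. In the reference annotation EXPB6, EXPB2, EXPB3 and EXPB4 follow each other on chromosome 10 with 0 other genes between them. EXPB3 and EXPB4 are known from rice internodes, where they respond to gibberellin. Both fell after linalool, whereas EXPB2 between EXPB6 and EXPB3 was not measured above background in either group.

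EXPB4 (Os10g0556100) had the smaller spread of the pair. Its first probe read -4.71, -2.58, -4.13 and -4.36 in mock and -7.42, -7.75, -8.31 and -8.90 in linalool. It was well above background on all mock arrays and no linalool array. The difference was -4.15 (interval -5.28 to -3.01, limma adjusted p = 0.000132), and the level was at least 10.7-fold lower. Without mock replicate 2 this bound was at least 7.84-fold. The other 5 probes of EXPB4 were too dim to test, being well above background on 1 or 2 arrays, always including mock replicate 2. Their mean levels differed between the groups by -3.02 to -2.59, with no overlap between groups, beside 36.0% of all tested genes wholly lower. Lack of overlap says little at such signals: EXPB2 probes 1 and 3, not well above background on any array, were also wholly lower. The bounds of the 5 dim EXPB4 probes, at least 1.56-fold to at least 2.27-fold, rest on mock replicate 2: without it probe 5 gave no bound, and the others gave at least 1.04-fold to at least 1.67-fold.

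EXPB3 (Os10g0555900) fell from mock levels that differed widely among replicates. Its first probe stood at -6.02, -1.78, -4.28 and -6.07 in mock and at -8.55, -6.97, -7.74 and -9.62 in linalool. The groups did not overlap, but mock replicate 2 was 19.6-fold above the lowest mock array. The difference was -3.68 (interval -5.96 to -1.40, limma adjusted p = 0.0105). At this probe only 1 of the 4 linalool arrays, replicate 2, was well above background, so the linalool mean rests mostly on unmeasured signal and no fold is given. Without mock replicate 2 the difference was -2.76 (limma adjusted p = 0.0106).

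The other EXPB3 probes gave larger differences, -5.07 and -4.63 (limma adjusted p = 0.00222 and 0.00134), or at least 11.3-fold and at least 9.17-fold lower. They read -9.64 and -9.85 in linalool replicate 2, against -6.97 at the first probe, so the probes disagree on that array. Without mock replicate 2 their differences were -4.10 and -3.83 and their bounds at least 5.79-fold and at least 5.27-fold. Leaving out mock replicate 1 raised the bound of probe 2 to 17.3-fold, and leaving out mock replicate 4 raised that of probe 3 to 13.8-fold.

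EXPB2 (Os10g0555700) was covered by 4 probes, none of which was well above background on any array. On mock replicate 2 the EXPB2 probes gave processed signals of 2.44 to 2.75. Without the filter on dim probes, EXPB2 would have been called lower (-0.95, limma adjusted p = 0.00944), a difference within the range of probes without measured signal. Probe sequences were not used here, so how far a probe of 1 cluster gene reads another was not tested.

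**Figure D3:**
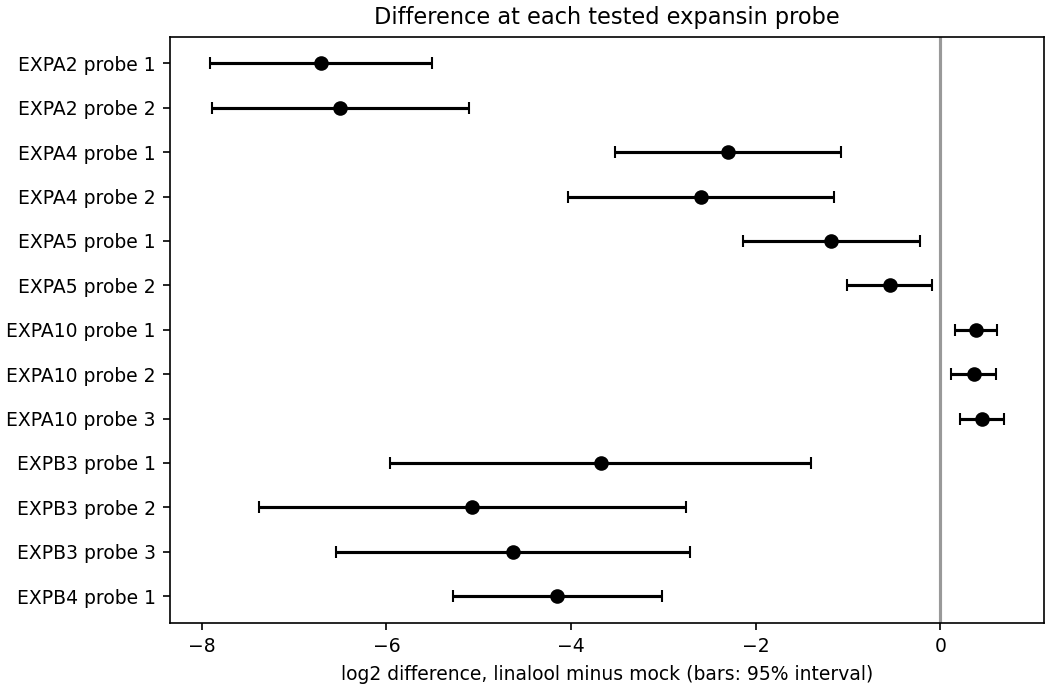
Difference in log2 level, linalool minus mock, at each of the 13 tested expansin probes (points), with 95% intervals from limma (bars). Probes of 1 gene lie on the same side of 0, from -6.71 at EXPA2 probe 1 to 0.45 at EXPA10 probe 3.

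Probes that were well above background on all mock arrays and on no linalool array made up 0.944% of all probes on the array, 401 in number. Of the 28 expansin probes, 5 had this pattern: both EXPA2 probes, EXPB3 probes 2 and 3 and EXPB4 probe 1. They belong to 3 genes, and probes of 1 gene are not independent. The linalool groups lay wholly below the mock groups for EXPA2, EXPA4, EXPB3 and EXPB4, beside 36.0% of all genes, and wholly above for EXPA10, beside 27.2%.

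The mock arrays disagreed more on these genes than on most others. The SD over the mock arrays was 1.07 for EXPA2, 1.13 for EXPA4, 0.85 for EXPA5, 0.94 for EXPB4 and 2.02 for EXPB3, against a median of 0.19 for all genes. Between 96.7% and 99.7% of genes had a smaller mock SD than these 5. EXPA10, at 0.13, was exceeded by most genes, with 30.0% having a smaller SD. The SDs over the linalool arrays were also large for the same 5 genes, above those of 89.6% to 99.1% of genes of all levels. Of these 5, EXPA2 and EXPB4 were well above background on no linalool array, and EXPA5 and EXPB3 on 1. The linalool SDs of these genes therefore rest mostly on unmeasured signal.

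Mock replicate 2 was the highest mock array for EXPA2, EXPA4, EXPB3 and EXPB4, 4 of the 6 tested genes, against 18.4% of all genes. It was also highest at 9 of the 13 tested probes, but probes of 1 gene are not independent. No share over all probes was taken for this. At gene level EXPA5 and EXPA10 were highest in mock replicate 1, and for EXPA2 mock replicate 3 was close behind. Mock replicate 2 was 5.24-fold above the lowest mock array for EXPA2, 6.61-fold for EXPA4 and 4.40-fold for EXPB4. The averaged level of the 6 genes was -2.23 on this array and between -3.92 and -3.28 on the other mock arrays. Without it, EXPA2, EXPA4, EXPB3 and EXPB4 were still lower, by -6.36, -1.85, -2.76 and -3.69, and EXPA10 was higher by 0.35 (limma adjusted p of 0.0247 or less in each case).

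The dividing-cell markers did not share this order. The 4 measured markers were PCNA of the replication clamp, MCM2 of the replicative helicase and the mitotic kinases CDKB1-1 and CDKB2-1. Mock replicate 2 was the highest mock array for 0 of them, and only MCM2 was lowest there. Their average on that array, -2.96, was close to the -2.92 of mock replicate 4, and the mock averages reached -2.59. The linalool averages were -3.14 to -2.65. After linalool CDKB2-1 and PCNA were called higher (1.06 and 0.23), MCM2 was called lower (-1.65) and CDKB1-1 was at -0.07 (limma adjusted p = 0.486), with a median of 0.08. With background correction by normexp without flagged backgrounds, CDKB2-1 turned to -0.11, PCNA stood at 0.13 (adjusted p = 0.124), and neither was called. With spike-in scaling CDKB1-1 was called higher (0.72, adjusted p = 0.0036), and the median of the 4 was 0.87. That scaling raised most genes: the median of all genes was 0.69, and 59.9% were called higher. CYCB2-2, a mitotic cyclin, cleared background on 0 arrays. Of the cellulose synthases of the secondary wall, CESA7 and CESA9 also cleared it on 0 arrays and CESA4 on 1 at most. The part of cell composition in the expansin differences was not tested.

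Further genes of the family were followed in the same way. Of 15 other expansin and expansin-like genes on the array, 8 could be tested, and 5 were lower, 1 was higher and 2 were not called, with a median of -0.87. Of all tested genes, 38.5% were called lower and 28.9% higher. The lower calls include EXPB7, which passed the filter through the mock arrays alone. In practice only a lower call was open to EXPB7, so the count and the median lean on the filter here too. Expansin-like A genes encode relatives of expansins for which no wall-loosening activity has been shown. Of these, EXLA3 (Os07g0475400) was the most sharply separated, at -1.69, -1.68, -1.70 and -1.39 in mock and -4.54, -4.55, -4.61 and -4.50 in linalool. The groups were far apart and tight, with a difference of -2.94 (limma adjusted p = 2.34e-07). EXLA2 also fell, with a difference of -1.20 (limma adjusted p = 0.00165), while EXLA1 gave -0.27 (limma adjusted p = 0.232).

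The alpha expansin EXPA11 gave -0.95 (limma adjusted p = 0.00017), and the beta expansin EXPB7 gave -3.20 (limma adjusted p = 0.000674) and at least 4.07-fold. EXPB6, which starts the chromosome 10 cluster, was at -0.79 (limma adjusted p = 0.183). The gene called higher was EXPA16 (0.99, limma adjusted p = 0.0243), named here after its value was seen, and it turned to -0.28 with normexp without flagged backgrounds. Mock replicate 2 was the highest mock array for 1 of these 8 genes, and for 4 of the 6 cellulose synthases of the primary wall.

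Of the 6 cellulose synthases of the primary wall, CESA8 (-2.14, limma adjusted p = 2.39e-05) and CESA6 (-0.97, limma adjusted p = 0.000219) fell. CESA2 was called higher (0.45, limma adjusted p = 0.039) but lower, at -0.39, with normexp without flagged backgrounds. CESA1 stood at 0.25 (limma adjusted p = 0.0845), and the median of the 6 was -0.11. Beside these, 38.5% of all tested genes were called lower and 28.9% higher. XTH8, a gibberellin-responsive enzyme that cuts and rejoins xyloglucan, fell from between 0.05 and 0.84 in mock to between -1.48 and -0.86 in linalool, a difference of -1.51 (limma adjusted p = 0.000226). The list that holds XTH8 has 9 more loci with no symbol of their own. They were not looked up in the reference, so no role is given to them. The 4 that could be tested, named after their values were seen, were all lower, beside 38.5% of all tested genes. They were Os06g0697000 (-7.89, at least 72.8-fold), Os11g0539200 (-1.13), Os10g0577500 (-1.13) and Os10g0545500 (-0.76), with limma adjusted p of 0.0204 or less in each. The bound for Os06g0697000 rests on 1 probe, well above background on no linalool array, so in practice only a lower call was open at that probe. Another probe of that locus was well above background on 6 arrays, so on some linalool arrays, and its difference is not given here. Both leaf markers were also lower, PSAH by -1.97 and RCA by -2.07 (limma adjusted p = 2.07e-05 and 4.05e-05).

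**Figure D4:**
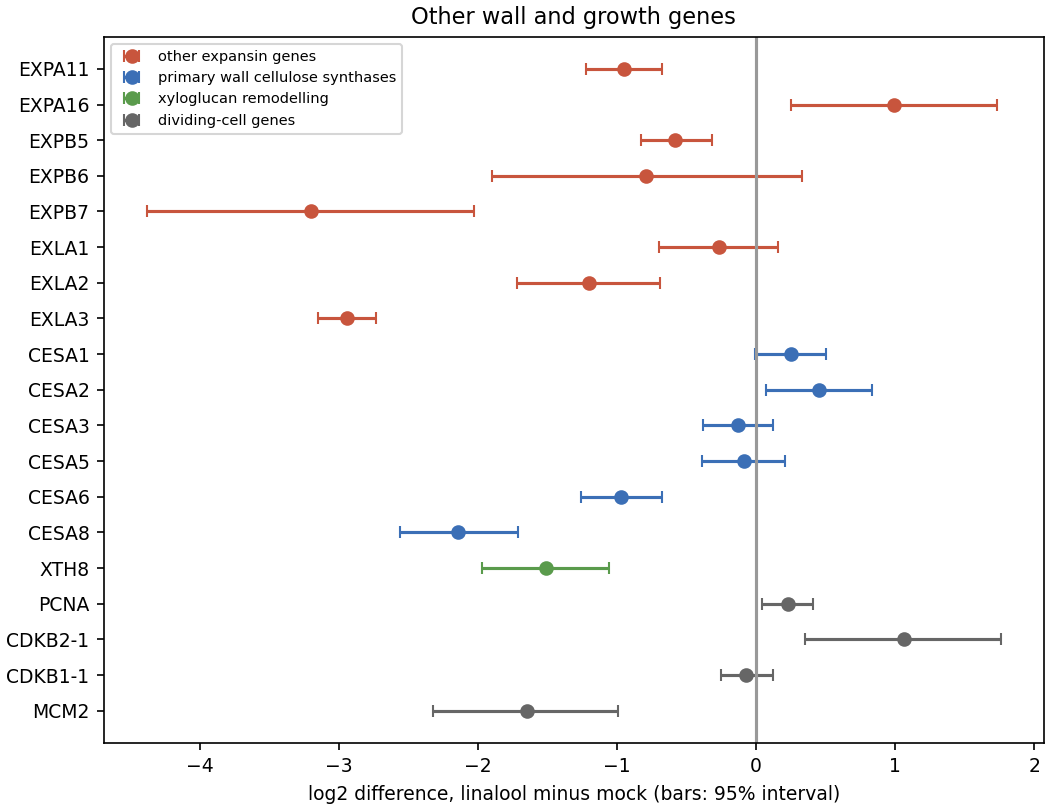
Difference in log2 level, linalool minus mock (horizontal axis), with 95% intervals for the tested other expansin genes (red), primary-wall cellulose synthases (blue), XTH8 (green) and dividing-cell genes (grey). EXPB7 and EXLA3 have the largest plotted falls, -3.20 and -2.94, and CDKB2-1 and EXPA16 the largest rises, 1.06 and 0.99.

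The size of the falls depended on how dim signals were treated. Processed signals of a few units were taken to log2 as deposited. With background correction by normexp and an offset of 50, which pulls dim values together, and with spots of flagged background left out (a choice made after seeing the data), EXPA2 gave -2.67, EXPA4 -1.38, EXPA5 -0.70, EXPB3 -1.49, EXPB4 -1.56 and EXPA10 0.45. All 6 were called in the same direction as before (limma adjusted p of 0.0139 or less in each). With normexp fitted on all spots none of the falls was called, and EXPA2 gave -1.91 (adjusted p = 0.151). In that fit linalool replicate 1 carried a spot with a signal minus background of -33646, and the corrected 5th percentile there was 691 against 57.5 to 80.2 on the other arrays.

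Scaling to the 6 measured spike-in probes moved the median of all genes up by 0.79. On that scale EXPA2 (-5.92), EXPA4 (-1.51), EXPB3 (-2.89) and EXPB4 (-3.36) were still lower and EXPA10 higher (1.18), and EXPA5 was not called (-0.39, adjusted p = 0.301), its second probe turning to 0.24. On that scale 59.9% of all genes were called higher and 12.4% lower, and the median of all genes was 0.69. Beside this, the 8 other expansin genes had a median of -0.08, with 1 higher and 2 lower, and the 6 primary-wall cellulose synthases one of 0.68, with 4 higher and 1 lower.

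**Figure D5:**
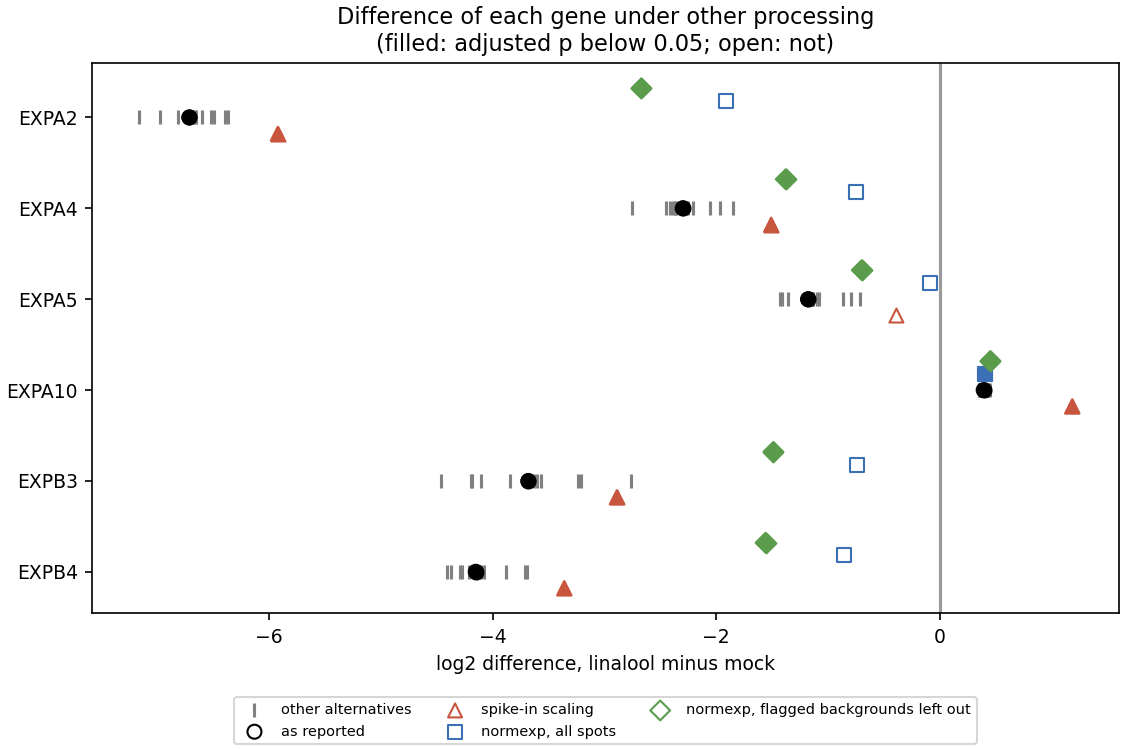
Difference of each tested expansin gene, linalool minus mock (horizontal axis, log2), as reported (black circle) and under other processing; filled symbols have an adjusted p below 0.05, and grey ticks show the remaining alternatives whether called or not. EXPA2, EXPA4, EXPA5, EXPB3 and EXPB4 stay left of 0 and EXPA10 right of 0 throughout, while the falls shrink with normexp, EXPA2 from -6.71 to -2.67 with flagged backgrounds left out.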

How the data were processed

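Single-colour arrays were hybridised with Cy3-labelled RNA, per the labels' protocols. The deposited intensity values are the processed signal of Agilent Feature Extraction 10.7.3.1, per the file headers, with the background subtracted, linear, and without any scaling from array to array. The 75th percentile of this signal was 849.6 to 999.6 on mock and 1092 to 1605 on linalool arrays, 73.3% to 77.3% of spots were well above background, and the median local background was 26 to 28 on mock and 19 on linalool arrays. The deposited series matrix holds the same intensity values times 1 constant per array (1.37 to 2.51, medians 298.8 to 339.8), for a reason not given in the sources used here.

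Non-uniform outlier spots (4 to 17 per array) were left out and no spot was saturated. Log2 values minus the 75th percentile went into limma 3.58.1 under R 4.3.3 (lmFit, eBayes, Benjamini-Hochberg), after checks on simulated data. At gene level 1353 probes naming different loci were left out. A fold written as at least N-fold sets the mean of the bright group against, per array, the higher of 2 values, the probe's own and the lowest of any probe called well above background. Background correction with normexp used the median spot and local background signals. The design text calls the replicates biological. Their number limits the precision. Same-numbered replicates correlated at 0, 0.17, 0.11 and -0.11 in their deviations and were not treated as pairs.

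The array names loci and no symbols. Symbols were recalled, and those printed were found once in the reference for assembly ASM3414082v1, on the chromosome of the locus. That build is not the array's, so no coordinates are given. By rule, all 9 members were named, with up to 4 tested genes of smallest p in each other list and the 2 genes most like the best-measured member. Outside this rule the text names EXLA1, EXPB6 and EXPA16, the untested CYCB2-2, CESA4, CESA7 and CESA9, and 4 loci listed with XTH8. The members and lists were chosen with earlier results of these data known.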

Additional observations from a re-analysis of the deposited data

Results flagged for a closer look

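Over the genes described above, 42 groups of 4 arrays were searched for an array lying far from its group, and 3 were found. Chance alone flags about 1 in 20 groups, so a few flags among 42 are not unusual. For EXPA4, linalool replicate 4 stood at -6.68, below the -5.77 to -5.62 of the other linalool arrays. For EXLA3, mock replicate 4 stood at -1.39, above the -1.70 to -1.68 of the other mock arrays. For CESA2, linalool replicate 2 stood at -6.14, below the -5.70 to -5.61 of the other linalool arrays.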

How the results depend on the processing

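No expansin difference changed sign at the probe that represents its gene, under any alternative run. As reported, 22285 probes and 14523 genes passed, with 5 expansin genes lower and 1 higher. Normexp on all spots gave 9407 probes, 5826 genes and 0 lower expansin genes. The failure of that fit on linalool replicate 1 is shown by the values given above, and without flagged backgrounds it gave 23787 probes and 15457 genes, with 5 lower and 1 higher. When only probes above background on all arrays were kept, 2 expansin genes were testable and 1 was lower. Without a filter 27748 probes and 18582 genes passed, and 6 of 9 expansin genes were lower. Leaving out 1 replicate at a time gave 20491 to 22428 probes, 13370 to 14593 genes, 4 to 5 lower and 1 higher. EXPA5 was also not called with quantile normalisation (-0.72, adjusted p = 0.137). With the replicate number as a block 21229 probes and 13825 genes passed, again with 5 lower and 1 higher. Of the called probes 42.2% were higher as reported, 81.8% with spike-in scaling, 32.1% with normexp without flagged backgrounds and 34.0% without a filter; of the called genes the shares were 42.9%, 82.9%, 32.3% and 33.9%. Signals near background limit EXPA3, EXPA5 and the linalool levels of EXPA2, EXPB3 and EXPB4. Bounds without single arrays were added after seeing the data.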
